A study of Mus musculus with 4 samples.

Results

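The ATF4-CHOP stress transcription factors and their feedback genes are 10 genes that carry out and limit the integrated stress response, and they were measured here in mouse vascular smooth muscle cells after siRNA against a circular RNA. The members were found by gene symbol, and all 10 of 10 symbols were present among the 22488 genes listed for each library. They are the transcription factor genes Atf4, Atf5, Cebpb, Cebpg, Ddit3 and Atf3, the chromatin protein gene Nupr1, the feedback genes Trib3 and Ppp1r15a, and the enzyme gene Chac1. The set was chosen by the measured difference in FPKM between circEsyt2 siRNA and scramble siRNA in these same libraries. The values of the members in that comparison are therefore given as a description, and no test on them is used as support.

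The cells were cultured mouse vascular smooth muscle cells of the C57BL/6 strain at passages 4 to 10, and every library came from transfected cells. Control cells received a scramble siRNA, which has no intended target, and the other cells received siRNA to circEsyt2, whose name marks it as a circle made from Esyt2 RNA, in each case for 48 hours. Each group has 2 libraries, there is no untransfected group, and nothing in the labels says that the 2 libraries of a group came from separate cultures. Spread between libraries may thus be technical, and p-values measure only that spread.

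In the integrated stress response, kinases that sense amino acid shortage, heme loss, double-stranded RNA or a loaded endoplasmic reticulum phosphorylate the initiation factor eIF2, which slows most translation. The mRNA of Atf4 is then translated better through short reading frames in its 5′ leader, and the ATF4 protein activates amino acid genes together with partners of the same basic leucine zipper (bZIP) class. CHOP, the protein of Ddit3, is induced downstream and is known for its part in cell death, while the products of Trib3 and Ppp1r15a restrain the response. In smooth muscle of the vessel wall this pathway has been linked to calcification and to the answer to injury.

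The values are FPKM, a measure that divides the reads of a gene by its length and by the total of the library. Read numbers recovered from the digits gave totals of 2516428 to 4116791 reads assigned to genes per library. Each member had between 12 and 1698 reads in a library, and all 10 passed the filter of a mean of at least 1 FPKM that left 11290 genes for testing. Of 10 smooth muscle markers, 9 were above 1 FPKM in each scramble library and 8 in each circEsyt2 siRNA library. Their summed level was 1584 and 1595 FPKM in the controls and 939 and 893 FPKM after circEsyt2 siRNA. In bulk RNA, fewer cells of a type and less RNA per cell cannot be told apart. The summed level of 12 hepatocyte markers was 16.9 and 9.03 FPKM in the scramble libraries, 3369 FPKM in circEsyt2 siRNA replicate 1 and 107 FPKM in replicate 2. All 12 were above 1 FPKM in replicate 1 and 10 in replicate 2. Albumin (Alb) accounted for 2083 FPKM of the sum in replicate 1 and for 65.7 FPKM in replicate 2. Summed markers of 3 further classes were also highest in replicate 1: macrophages and leukocytes at 39.5 FPKM against 8.23 to 15.0 FPKM in the other libraries, erythroid cells at 15.2 against 0.665 to 1.89 FPKM, and epithelium at 13.2 against 0.432 to 1.21 FPKM. In both circEsyt2 siRNA libraries the fibroblast sum was lower (265 and 241 FPKM against 349 and 347 in the controls) and the endothelial sum higher (9.36 and 8.43 FPKM against 4.27 and 4.60).

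Every member was higher with circEsyt2 siRNA, and the groups did not overlap for any of the 10. Among all tested genes, 29.7% had non-overlapping groups with circEsyt2 siRNA higher and 31.1% with circEsyt2 siRNA lower. The fold of the mean FPKM ran from 1.59 for Cebpb to 15.8 for Atf3, and the median log2 fold change of the 10 genes was 1.91 against 0.0037 over all tested genes. Each log2 fold change is the mean of log2(FPKM + 1) with circEsyt2 siRNA minus that with scramble siRNA, and the added 1 makes the changes of low genes look smaller than they are. The fit across all genes (limma) called all 10 members higher at an adjusted p under 0.05, where it called 5.47% of all tested genes higher and 12.7% in either direction. Nothing is read from that count, since the contrast was known when the members were chosen. All calls, of members and of other genes, were lost without scramble replicate 1 and without scramble replicate 2, where 1 scramble library was left. The median log2 fold change of the members was 1.90 and 1.93 in these fits. The members were also higher without circEsyt2 siRNA replicate 1, the library richest in hepatocyte markers, with log2 fold changes from 0.83 for Cebpb to 3.82 for Atf3. Leaving it out does not remove the hepatocyte signal from the group. Replicate 2 had a marker sum of 107 FPKM, against 16.9 and 9.03 FPKM in the scramble libraries.

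**Figure D1:**
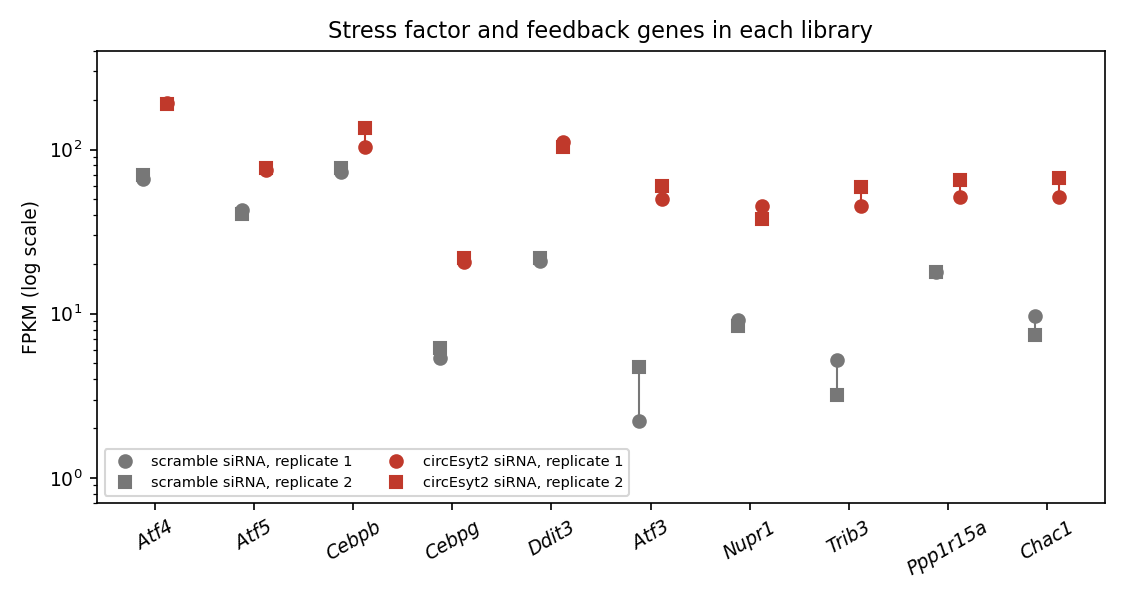
FPKM of the 10 genes on a log axis in the 2 scramble siRNA libraries (grey) and the 2 circEsyt2 siRNA libraries (red), with circles for replicate 1, squares for replicate 2 and a line joining the replicates of a group. The red points lie above the grey ones for each gene, by the least for Cebpb and Atf5 and by the most for Atf3 and Trib3.

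Atf4 and Atf5 encode the factors whose translation rises when eIF2 is phosphorylated. Atf4, the hub of the response (chromosome 15, 80255184 to 80257541, plus strand, GRCm38), measured 65.9 and 70.2 FPKM in the control libraries and 191 and 189 FPKM after circEsyt2 siRNA. Replicates lay close together in both groups, and the fold of the means was 2.80, with a log2 fold change of 1.47 (SE 0.10). Over the 4 pairings of a circEsyt2 siRNA library with a scramble library the fold ranged from 2.70 to 2.90, the narrowest relative range of the 10 genes except for that of Atf5. Atf5, a factor linked to the mitochondrial stress response (chromosome 7, 44812256 to 44816658, minus strand), measured 42.7 and 40.7 FPKM with scramble siRNA and 75.3 and 76.9 FPKM with circEsyt2 siRNA. Its fold of the means was 1.82 and its log2 fold change 0.85 (SE 0.11). The ratio of Atf4 to Atf5 FPKM was 1.54 and 1.72 in the controls and higher, at 2.54 and 2.46, after circEsyt2 siRNA.

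Cebpb and Cebpg encode C/EBP proteins that pair with ATF4 or CHOP through their zippers. Cebpb, also a regulator of inflammation and fat cell formation (chromosome 2, 167688915 to 167690418, plus strand), measured 72.7 and 77.7 FPKM with scramble siRNA and 104 and 135 FPKM with circEsyt2 siRNA. It had the smallest difference of the 10 genes, with a fold of 1.59 and a log2 fold change of 0.65 (SE 0.15). The circEsyt2 siRNA libraries differed by 1.298-fold for this gene, near the 1.303-fold of Chac1 and the 1.311-fold of Trib3. Its log2 fold change was 0.83 without replicate 1 and 0.46 without replicate 2. An exon of Tmem189 on the opposite strand covers 20.7% of the exon length of Cebpb, and reads there cannot be assigned to a gene where strand is not used. Cebpg, a small C/EBP protein without a known activation domain (chromosome 7, 35046422 to 35056573, minus strand), measured 5.37 and 6.22 FPKM with scramble siRNA and 20.7 and 21.8 FPKM with circEsyt2 siRNA. The 2 higher values lay close together, and its fold was 3.66 (log2 fold change 1.71, SE 0.15).

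Ddit3 and Atf3 encode the factors that ATF4 and its partners switch on next. Ddit3, the CHOP gene (chromosome 10, 127290774 to 127296288, plus strand), measured 20.9 and 21.7 FPKM with scramble siRNA and 111 and 103 FPKM with circEsyt2 siRNA. The 2 groups lay well apart, at a fold of 5.02, and the pairings ranged from 4.76 to 5.29. Atf3, a repressor and activator induced by many stresses (chromosome 1, 191170296 to 191218039, minus strand), measured 2.21 and 4.74 FPKM with scramble siRNA and 50.3 and 59.7 FPKM with circEsyt2 siRNA. This was the largest fold of the 10 genes and also the least certain: the scramble values rest on 12 and 42 reads and differ by 2.14-fold. The pairings for Atf3 ranged from 10.6-fold to 27.0-fold. Nupr1, a small stress-induced chromatin protein that works with these factors (chromosome 7, 126623249 to 126630861, minus strand), measured 9.17 and 8.41 FPKM with scramble siRNA and 45.3 and 37.7 FPKM with circEsyt2 siRNA. Its fold was 4.72 (log2 fold change 2.11, SE 0.15).

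Trib3 and Ppp1r15a close feedback loops on the response. Trib3, a pseudokinase that binds ATF4 and CHOP and also the kinase AKT (chromosome 2, 152337422 to 152344032, minus strand), measured 5.24 and 3.20 FPKM with scramble siRNA and 45.1 and 59.1 FPKM with circEsyt2 siRNA. Both scramble values rest on 28 reads, and the fold of 12.4 had pairings from 8.62 to 18.5. Ppp1r15a encodes GADD34, the subunit that brings a phosphatase to eIF2 and so restores translation (chromosome 7, 45522916 to 45526268, minus strand). It measured 18.01 ± 0.0244 FPKM with scramble siRNA and 51.5 and 65.3 FPKM with circEsyt2 siRNA (SD, n = 2), a fold of 3.24. Chac1, which encodes an enzyme that degrades glutathione (chromosome 2, 119351229 to 119354381, plus strand), measured 9.71 and 7.42 FPKM with scramble siRNA and 51.3 and 66.8 FPKM with circEsyt2 siRNA. The fold for Chac1 was 6.89, with pairings from 5.28 to 9.004. Cebpb, Atf3, Trib3, Ppp1r15a, Chac1, Cebpg and Atf5 were lower in circEsyt2 siRNA replicate 1 than in replicate 2, while Atf4, Ddit3 and Nupr1 were higher there. Replicate 1 is the library rich in hepatocyte markers, whose part in these differences was not tested.

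**Figure D2:**
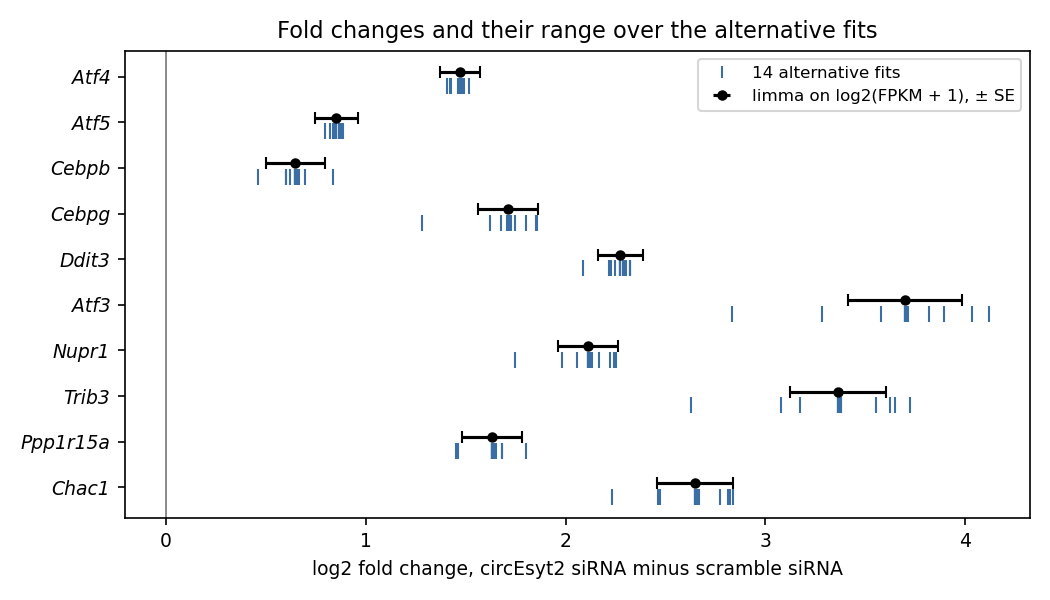
Log2 fold changes of the 10 genes, circEsyt2 siRNA minus scramble siRNA, with the standard error (black points and bars) and the values from 14 alternative fits (blue ticks). Every tick lies above 0, and the ticks of Atf3 and Trib3 spread the most, down to 2.84 and 2.63 with a pseudocount of 5.

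The order of the levels per length changed between the groups. With scramble siRNA the order was Cebpb, Atf4, Atf5, Ddit3, Ppp1r15a, Nupr1, Chac1, Cebpg, Trib3 and Atf3, and neighbours overlapped for Nupr1 and Chac1 and for Trib3 and Atf3. With circEsyt2 siRNA it was Atf4, Cebpb, Ddit3, Atf5, Chac1, Ppp1r15a, Atf3, Trib3, Nupr1 and Cebpg. There Cebpb and Ddit3 overlapped, and so did each neighbouring pair from Chac1 through Ppp1r15a, Atf3 and Trib3 to Nupr1. Within that run both values of Nupr1 lay below those of Chac1, Ppp1r15a and Atf3, and only those of Trib3 overlapped with Nupr1. The highest member exceeded the lowest by 32.8-fold and 24.3-fold in the controls and by 9.24-fold and 8.69-fold after circEsyt2 siRNA, so the 10 levels drew together. The lowest control values were Atf3 in scramble replicate 1, on 12 reads, and Trib3 in scramble replicate 2, on 28 reads. The control ratios are therefore uncertain, and the members were chosen with this contrast known. Among the 11290 tested genes Atf4 went from rank 664 by mean FPKM to rank 199, Ddit3 from 2377 to 406, and Atf3 from 8044 to 856. The FPKM of the 10 genes summed to 252 and 258 in the controls and to 745 and 815 with circEsyt2 siRNA.

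ATF4 with a C/EBP partner is known to bind a composite DNA element, and the promoters of the members were searched for it. The members and the ATF4 target list were chosen as genes of this pathway with results of these data known. Their shares of matches are therefore a description and test nothing. Promoter windows from RefSeq on GRCm38.p6, from 250 bases before to 50 bases after the annotated start, were found for all 10 genes. The letters TGATGNAA, on either strand, were present in 4 of the 10 genes, namely Atf3, Chac1, Nupr1 and Trib3, against 3.97% of all 32851 promoter windows of the same length and 2.785% of the 8834 tested genes found in that table. Among the ATF4 target genes outside the members, 10 of the 30 found in the table had a match. In tested genes outside the members the share was 5.63% of 462 called higher, 2.63% of 646 called lower and 2.58% of 7716 not called. The genes called higher include ATF4 targets with a match, among them Asns, Gars and Slc7a11. The share of called genes and that of the target list are therefore not independent. The cyclic AMP response element TGACGTCA was present in Ppp1r15a only, against 1.79% of all windows and 3.6% of the tested genes in the table. Neither the ER stress element (ERSE) nor the element TGACGTGG of the unfolded protein response had a match in a member window. These are matches of letters in a fixed window, and binding was not measured.

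The upstream stretches that carry these matches are shown to let the sites be compared. Each is read 5′ to 3′ on the strand of its gene, with the match in capitals, and they come from chr1:191183410-191183469 (minus strand), chr2:119351023-119351082 (plus), chr7:126625547-126625606 (minus) and chr7:45526269-45526328 (minus) of GRCm38.p6.
Atf3: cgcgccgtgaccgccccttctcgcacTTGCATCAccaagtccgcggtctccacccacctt
Chac1: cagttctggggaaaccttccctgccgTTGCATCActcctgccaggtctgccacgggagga
Nupr1: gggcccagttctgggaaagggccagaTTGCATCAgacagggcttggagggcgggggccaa
Ppp1r15a: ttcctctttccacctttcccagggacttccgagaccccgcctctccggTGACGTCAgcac
Atf3, Chac1 and Nupr1 hold the same 8 letters, TTGCATCA, which is the opposite-strand reading of the searched element. They lie from −110 to −103 before the start in Atf3 and in Nupr1, and from −193 to −186 in Chac1. The match of Trib3 has the letters TTACATCA and lies within the transcribed part, 15 to 22 bases into it. The element of Ppp1r15a lies from −12 to −5.

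Upstream reading frames are the feature by which Atf4 and its relatives answer eIF2 phosphorylation, so the annotated 5′ leaders were read from GENCODE M21. In the principal transcript of each gene, 7 of the 10 members had at least 1 ATG in the leader, against 48.3% of 11140 tested genes with such a transcript. The median leader was 247 nt in the members and 163 nt in those genes, and the comparison was not adjusted for length. The leader of Atf4 is 594 nt long and holds 3 ATGs. The last of them opens a frame of 59 codons that begins 97 nt before the coding start and runs past it, and a frame of 3 codons comes before it. The first ATG of Atf4 opens a closed frame of 36 codons that begins 475 nt before the coding start. Atf5 has no counterpart of that first frame, but the rest of its layout is alike. It has a frame of 3 codons followed by 1 of 58 codons that begins 121 nt before the coding start and overlaps it. Such an overlapping frame was found in these 2 members and in 15.4% of the tested genes. Ddit3 has a closed frame of 34 codons with an inner ATG in the same frame, Atf3 a frame of 25 codons, and Nupr1 a frame of 24 codons. Ppp1r15a has 3 frames, the last of 26 codons. Cebpg has 4 ATGs, the last of them inside the 23-codon frame of the ATG before it and in the same frame. No ATG was found in the leaders of Cebpb, Trib3 and Chac1. The counts here are of RNA, so how these leaders were used in the cells was not measured.

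**Figure D3:**
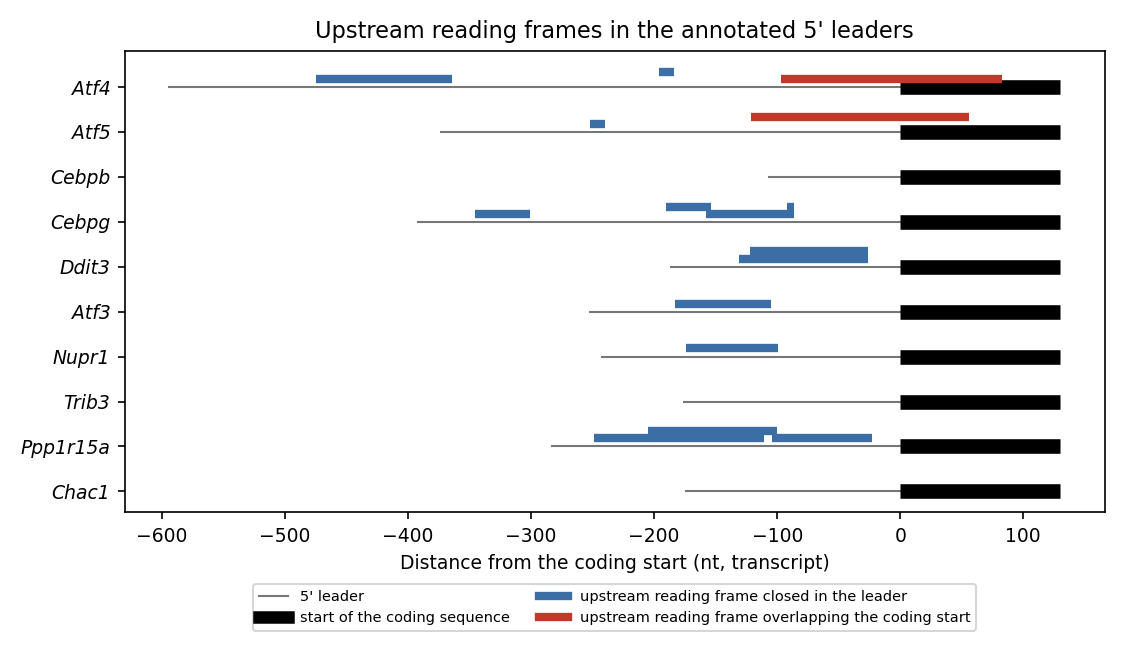
Annotated 5′ leaders of the 10 genes drawn to scale in nt from the coding start, with upstream reading frames closed in the leader (blue) or overlapping the coding start (red). Atf4 and Atf5 share the red frame, and Cebpb, Trib3 and Chac1 have no frame.

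The members are also compact genes. Their median span in the genome was 4959 bp, against 23695 bp over 11267 tested genes, and 8 of 10 spanned under 10 kb, against 25.1% of those genes. Atf4 and Cebpb are annotated as 1 exon each once transcripts are merged, and Atf3 is the longest at 47744 bp. Chromosome 7 carries 4 members and 7.11% of the tested genes, and chromosome 2 carries 3 members and 7.90% of the tested genes. Exons of other genes on the opposite strand cover 4.11% of the exon length of Atf5 (Il4i1 and Nup62) and 3.97% of that of Ddit3 (Mars). A further annotated gene on the same strand that also bears the symbol Ddit3 covers 6.13% of the exon length of Ddit3, and how its reads were counted is not given in the sources used here.

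Of the 10 members, 6 encode bZIP proteins, and they were set beside the 47 other bZIP genes of a list drawn up for the family. The FPKM of the 6 stress factors summed to 210 and 221 in the controls and to 552 and 586 with circEsyt2 siRNA. Their share of the summed FPKM of all 53 bZIP genes was 23.2% and 24.4% in the controls and 42.1% and 40.1% after circEsyt2 siRNA. Cebpb had the highest FPKM of the family in both scramble libraries, and Atf4 in both circEsyt2 siRNA libraries. Ddit3 stood at rank 16 in both scramble libraries and at ranks 2 and 3 in the others. Atf3 moved from ranks 36 and 32 to rank 8. The ratio of Ddit3 to Cebpb FPKM was 0.287 and 0.279 in the controls and 1.07 and 0.766 after circEsyt2 siRNA, while the ratio of Ddit3 to Cebpg was 3.89 and 3.49 against 5.34 and 4.74.

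Of the 47 other bZIP genes, 33 were tested, and limma called 2 higher and 0 lower, which is 6.06% higher against 5.47% of all tested genes and 0% lower against 7.26%. At an unadjusted p under 0.05 it placed 9 higher and 4 lower, beside 3397 of all 11290 tested genes in either direction. Limma's voom called 5 higher and 2 lower of 32, beside 874 higher and 1111 lower of 10821 genes. With a filter at a mean of 5 FPKM 6 were called higher, beside 835 of the 6980 genes that passed that filter. The list median was 0.18. Nfil3, a repressor known from the circadian clock and from lymphocytes, went from 24.3 and 22.8 to 43.8 and 49.4 FPKM (log2 fold change 0.95, SE 0.13, limma adjusted p = 0.0106). Mafk, a small MAF protein that pairs with NRF2, went from 12.1 and 13.3 to 23.3 and 29.2 FPKM (log2 fold change 0.98, SE 0.16, limma adjusted p = 0.0176). Both calls were lost without circEsyt2 siRNA replicate 2 and without either scramble library, and that of Mafk also with eBayes without a trend. Cebpa and Creb3l3, family members known from liver and chosen after their values were seen, were high in 1 library. Cebpa measured 6.75 FPKM and Creb3l3 4.403 FPKM in circEsyt2 siRNA replicate 1, against at most 2.40 and 0.212 FPKM in the other 3 libraries.

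**Figure D4:**
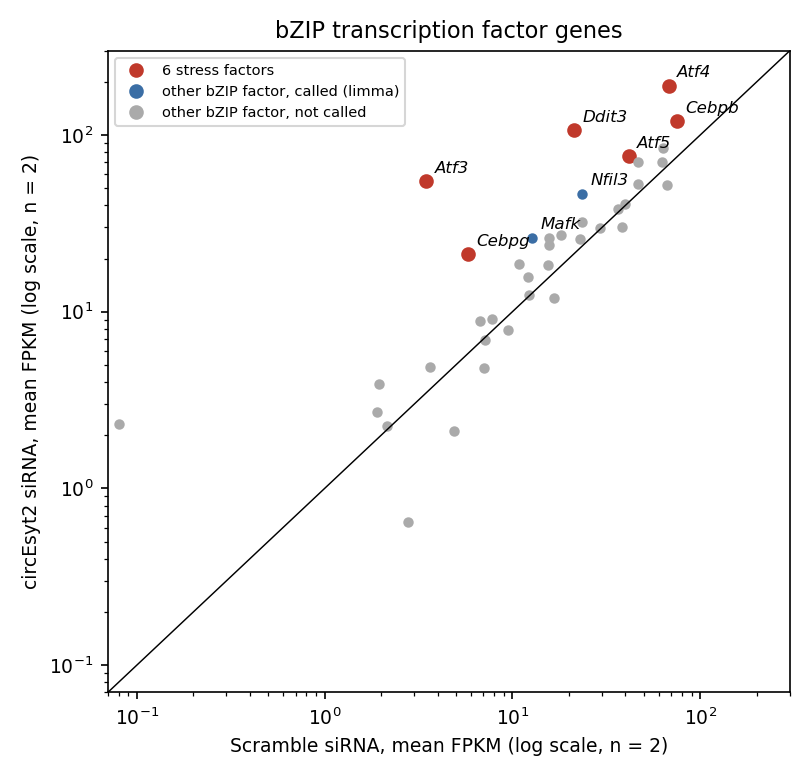
Mean FPKM of the tested bZIP genes with circEsyt2 siRNA against scramble siRNA (both axes log, n = 2 per group), with the 6 stress factors in red, other factors called by limma in blue, other factors not called in grey, and a line of equal level. All 6 red points lie above the line, Atf3 and Ddit3 farthest from it, and Nfil3 and Mafk are the blue points.

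Of the 5 tested close relatives of the feedback and effector genes, limma called 1 higher and 1 lower, 20% in each direction beside 5.47% and 7.26% of all tested genes, with a median of 0.35. Trib2, a pseudokinase of the same family as Trib3, fell from 17.1 and 16.8 to 1.96 and 2.88 FPKM (log2 fold change −2.41, SE 0.19, limma adjusted p = 0.00383). Its direction was opposite to that of Trib3, and its level passed from above that of Trib3 with scramble siRNA to below it with circEsyt2 siRNA. The call was lost without either scramble library and held in the other alternatives. Trib1 measured 3.12 and 4.28 against 5.06 and 4.81 FPKM and did not pass the test (limma adjusted p = 0.322). Stk40, a pseudokinase related to the tribbles, went from 10.2 and 9.38 to 14.8 and 17.01 FPKM, at the edge of the threshold (limma adjusted p = 0.0449, and 8 of 14 alternatives did not call it). Ppp1r15b, the constitutive counterpart of Ppp1r15a, measured 22.7 and 21.8 against 30.1 and 34.6 FPKM and did not pass (limma adjusted p = 0.0558). The FPKM ratio of Ppp1r15a to Ppp1r15b was 0.794 and 0.826 in the controls and 1.71 and 1.89 after circEsyt2 siRNA. Exons of Gm26616 on the opposite strand cover 11.4% of the exon length of Ppp1r15b. Chac2, the low-activity relative of Chac1, measured 12.1 and 5.91 against 10.3 and 10.2 FPKM, and the groups overlapped. Nupr1l was under the filter, at 0 to 0.195 FPKM.

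The genes upstream of the members, 22 genes of the eIF2 kinases, eIF2, eIF2B and their regulators, gave 2 called higher and 2 lower of 22 tested. That is 9.09% in each direction, beside 5.47% and 7.26% of all tested genes, and the list median was 0.11. Dnajc3, which encodes an inhibitor of eIF2 kinases with a chaperone role in the endoplasmic reticulum, fell from 40.5 and 39.5 to 12.9 and 13.0 FPKM (log2 fold change −1.55, SE 0.12, limma adjusted p = 0.00351). Eif2b5, the catalytic subunit of eIF2B, fell from 22.7 and 20.3 to 4.91 and 5.67 FPKM (log2 fold change −1.84, SE 0.15, limma adjusted p = 0.00407). Eif2s2, a subunit of eIF2, and Impact, an inhibitor of the kinase GCN2, were the 2 genes called higher, named after their values were seen, and both calls were lost with the replicate number as a block, with eBayes without a trend and without any 1 library. None of the 4 kinase genes was called by limma at the adjusted threshold. Eif2ak2, the gene of the double-stranded RNA sensor PKR, measured 58.0 and 53.0 against 43.2 and 34.6 FPKM (log2 fold change −0.51, SE 0.15, unadjusted p = 0.0133, limma adjusted p = 0.075). It was called lower in 3 alternatives, with a limma adjusted p of 0.041 with a filter at 5 FPKM, 0.032 by voom and 0.049 without circEsyt2 siRNA replicate 1, and in none of the other 11. Phosphorylation of eIF2 by these kinases, which sets the response, was not measured.

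Downstream, ATF4 target genes outside the members had 28 of 39 tested genes higher and 0 lower, which is 71.8% against 5.47% of all tested genes, with a list median of 1.12. At an unadjusted p under 0.05, 35 were higher and 0 lower, and voom called 32 of 37 higher and 0 lower. Among all tested genes, 3397 of 11290 reached that unadjusted p in either direction, and voom called 874 higher and 1111 lower of 10821. Without circEsyt2 siRNA replicate 1, the library rich in hepatocyte markers, the fit called 28 higher, and without replicate 2 it called 16. Replicate 2 also had a higher hepatocyte marker sum than the scramble libraries, so leaving out replicate 1 does not remove that signal. The list was drawn up with earlier results of these data known. Cth, an enzyme of cysteine synthesis, went from 3.84 and 4.96 to 40.6 and 39.6 FPKM (log2 fold change 2.94, SE 0.16, limma adjusted p = 0.00256). Eif4ebp1, which encodes a repressor of cap-dependent translation, went from 33.3 and 33.6 to 126 and 127 FPKM (log2 fold change 1.89, SE 0.10, limma adjusted p = 0.00256). Cbs, singled out after its values were seen, was listed at 0 in both scramble libraries and in circEsyt2 siRNA replicate 2 and at 10.6 FPKM in replicate 1, the library with high hepatocyte markers. Genes linked to CHOP had 4 of 11 higher and 0 lower (6 and 0 at an unadjusted p under 0.05, 5 and 0 of 9 by voom), and 1 higher with eBayes without a trend and 0 without circEsyt2 siRNA replicate 2. The 4 genes called higher are 36.4% of the tested CHOP-linked genes, beside 5.47% of all tested genes. Of these, Ddit4 is also counted among the ATF4 targets. Gadd45a, a stress gene of growth arrest, went from 6.76 and 8.40 to 22.9 and 33.4 FPKM (limma adjusted p = 0.00890), and Txnip, the thioredoxin-binding arrestin, from 27.4 and 24.7 to 50.5 and 65.0 FPKM (limma adjusted p = 0.0120). Exons on the opposite strand cover 19.1% of Gadd45a and 19.4% of Txnip.

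The other arms of the unfolded protein response raise ER chaperones through the factors ATF6 and XBP1. Of 24 tested ER chaperones and genes of the ATF6 and XBP1 arms, limma called 1 higher and 7 lower, or 4.17% and 29.2% beside 5.47% and 7.26% of all tested genes, and the list median was −0.24. Herpud1, a factor of ER-associated degradation, was the gene called higher and went from 17.2 and 16.2 to 54.9 and 49.9 FPKM (log2 fold change 1.59, SE 0.12, limma adjusted p = 0.00351). Dnajc3, given above, was among those that fell. The others called lower, named after their values were seen, were Calr, Hsp90b1, Pdia4, Pdia6, Hyou1 and Manf. Calr went from 676 and 662 to 406 and 404 FPKM, and Hsp90b1 from 260 and 254 to 163 and 159 FPKM. At an unadjusted p under 0.05 limma placed 4 genes of the list higher and 11 lower, beside 3397 of all 11290 tested genes in either direction. Voom called 3 higher and 8 lower of 23, beside 874 higher and 1111 lower of 10821 genes. Hspa5, the gene of the central ER chaperone BiP, named after its values were seen, measured 251 and 238 against 234 and 229 FPKM and did not pass the test (limma adjusted p = 0.608). The count of lower genes was 1 with eBayes without a trend and 2 without circEsyt2 siRNA replicate 2.

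**Figure D5:**
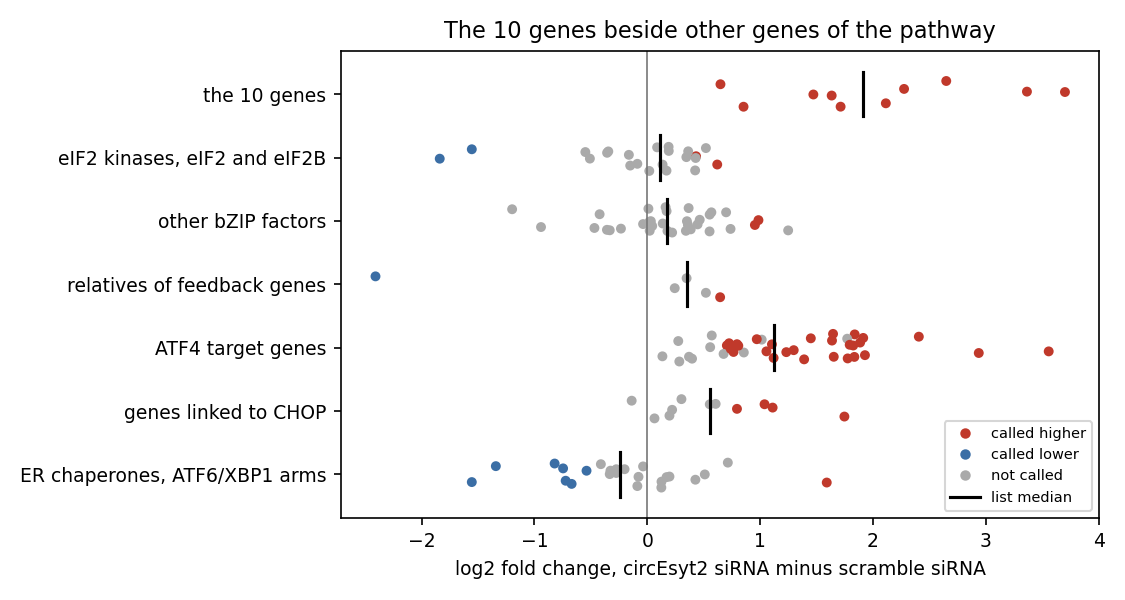
Log2 fold changes, circEsyt2 siRNA minus scramble siRNA, of the 10 genes and of the tested genes of 6 pathway lists, with 1 point per gene (red called higher by limma, blue called lower, grey not called; vertical jitter only) and a bar at each median. The medians run from −0.24 for the ER chaperone list to 1.12 for the ATF4 targets, beside 1.91 for the 10 genes.

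The 5 tested genes outside the set whose centred log2 values over the 4 libraries lay nearest to the mean profile of the 10 genes, by Euclidean distance, were Sema3e, Hist1h2ab, Asns, Eif4ebp1 and Cox7b2, at distances from 0.109 to 0.210. The members themselves lay at 0.290 (Ddit3) to 1.76 (Atf3) from their mean. Sema3e, a guidance factor of vessels and axons, measured 2.48 and 2.77 against 13.0 and 15.7 FPKM, and Asns, asparagine synthetase, measured 30.1 and 32.8 against 119 and 123 FPKM. Hist1h2ab and Cox7b2 were listed at 0 in both scramble libraries and rest on 5 to 7 reads in the circEsyt2 siRNA libraries, so no fold is given. Hist1h2ab also has 13 near copies, at 96.7% to 98.6% identity, and an exon on the opposite strand covers 29.2% of it, so its few reads and its zeros are uncertain. With 4 libraries in 2 groups, such a profile is little more than the size of the difference between the groups.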

How the data were processed

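RNA was sequenced in pairs of 150 bases, per the series' design text. The authors deposited FPKM by gene symbol for each library. The submitters' processing notes name Trimmomatic, HISAT2, featureCounts and the builds GRCm38 and mm10. Versions, settings, annotation and strand: not given in the sources used here.

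Library totals were solved from the digits of the FPKM with GENCODE M21 exon lengths, and 96.5% of the genes above 0 in any library gave whole numbers (tolerance 0.001). Even numbers made up 70.1% to 81.5% of the values of 1 or 2 and 48.4% to 52.1% of the values of 300 or more, so the units are called reads, and a pair may count as 2. Read numbers cover counting error only.

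The test was limma 3.58.1 in R 4.3.3 (trend, two-sided, Benjamini-Hochberg over 11290 genes, threshold 0.05) on log2(FPKM + 1), and it was tested on simulated data. Members and lists were chosen with earlier results of these data known. Named by rule were the members, the 2 genes of smallest p per list, the relatives of the feedback genes and the 5 nearest profiles. Alternatives changed the pseudocount, filter, scaling, variance model, block, count model or libraries. Replicate numbers did not pair the samples.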

Additional observations from a re-analysis of the deposited data

How the results depend on the processing

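All 10 genes kept a positive log2 fold change in the 14 alternative fits, with a median of 1.60 with a pseudocount of 5. Leaving out 1 library gave 0 to 10 members called, 0 to 405 genes higher and 0 to 622 lower over all tested genes, and a median of the members from 1.89 to 1.96. The calls of Cebpb failed in 7 alternatives and those of Atf5 in 4. Over all genes 617 were called higher and 820 lower, against 203 and 374 with eBayes without a trend. A filter at 5 FPKM gave 835 higher and 929 lower of 6980 genes, and voom gave 874 and 1111 of 10821. With the replicate number as a block the counts were 404 and 604 and all 10 members stayed called. The deviations of same-numbered libraries correlated at −0.05 across genes, so the numbers were not taken as pairs. Among the eIF2 genes, 1 was called higher without the filter, 0 with eBayes without a trend, 0 with the block and 4 by voom. Among other bZIP genes, 6 were higher with a filter at 5 FPKM, 1 higher and 1 lower with eBayes without a trend, and 5 and 2 by voom. Among the relatives, 0 were higher with a pseudocount of 5, without the filter, with eBayes without a trend or with the block, and 2 with a filter at 5 FPKM, trimmed mean scaling, median ratio scaling or voom. CHOP-linked genes had 1 higher with eBayes without a trend. ER genes had 2 higher with a filter at 5 FPKM or median ratio scaling, 3 by voom, and 1 lower with eBayes without a trend. Leaving out 1 library gave 0 to 3 higher for the bZIP genes, 0 higher for the relatives and the eIF2 genes, 0 to 1 lower for the relatives, 0 to 3 lower for the eIF2 genes, 0 to 28 higher for the ATF4 targets, 0 to 5 for the CHOP-linked genes, and 0 to 1 higher and 0 to 7 lower for the ER genes. The cause of these shifts was not tested. Scramble values of Atf3 and Trib3 of 12 to 42 reads limit the size of their folds.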
